A study of Mus musculus with 9 samples.

Results

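The 10 genes described here are Bmp4, the BMP receptor genes Bmpr1a, Bmpr1b, Acvr1 and Bmpr2, the inhibitory SMAD genes Smad6 and Smad7, and the BMP target genes Id1, Id2 and Id3. They were taken by gene symbol from the 53801 genes of an RNA-seq count table, and all 10 passed the filter on low counts together with 22452 genes in all. The table covers 9 libraries of a cultured mouse spermatogonial stem cell (SSC) line from Prmt5 flox/flox; Rosa26-CreERT2 mice, in which 1 µM 4OHT (4-hydroxytamoxifen) activates a Cre recombinase expressed from the ubiquitous Rosa26 locus and deletes Prmt5, an arginine methyltransferase gene. The groups carried the labels 4OHT, MU and OE, with 3 libraries each. By the study's methods, the knockout cells also received PRMT5 from a lentivirus, either catalytically dead or wild type, and MU and OE were read as these constructs, a reading that the labels do not spell out. All 3 groups thus share the 4OHT treatment, and libraries of ethanol-treated cells or of an empty vector were not analysed here. The study's methods name CF1 mouse embryonic fibroblast (MEF) feeders for its chemical screen and feeder cells for its growth curves of cultured mouse SSCs. They do not state whether the Prmt5 knockout cells had feeders, so the source of the feeder fibroblast markers below is not known. The sources used here do not say whether the replicates were separate cultures. The p-values therefore measure the spread between these libraries, which may be technical.

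BMPs are secreted ligands of the TGF-beta family. They bring together type I and type II serine/threonine kinase receptors, and the activated type I receptor phosphorylates SMAD1, SMAD5 and SMAD9, which enter the nucleus with SMAD4 and raise the transcription of target genes. The ID genes are classical targets whose products lack a DNA-binding domain and hold E proteins away from DNA, while SMAD6 and SMAD7 are induced inhibitors that feed back on the receptors. In the testis, BMP4 is known for promoting the differentiation of spermatogonia, and ID4 is a known marker of SSCs.

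Total counts ranged from 78751996 to 95370711 in 4OHT, from 192033300 to 365719548 in MU and from 79941857 to 154557863 in OE. Levels are given as CPM, the counts of a gene in 1000000 counts of the TMM-scaled library, and differences as log2 fold changes with their SE from edgeR's quasi-likelihood test, called at a Benjamini-Hochberg adjusted p under 0.05 over all 22452 genes. Prmt5 itself was read as a check of the labels, though its level cannot show which construct is catalytically dead. It was at 31.9, 30.8 and 28.2 CPM in 4OHT, at 145, 147 and 146 CPM in MU and at 1072, 1071 and 1085 CPM in OE. Prmt5 was therefore 7.36-fold lower in MU than in OE (log2 fold change -2.88 ± 0.052, edgeR adjusted p = 1.1e-12), and in MU against OE the kind of construct and its transcript level cannot be told apart.

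Cell type markers also moved with the groups. The summed level of 15 feeder fibroblast markers was 5693 to 6671 CPM in 4OHT, 3874 to 3918 CPM in MU and 2964 to 3024 CPM in OE. That of 10 macrophage markers was 172 to 188, 1122 to 1156 and 2213 to 2336 CPM in the same order. Most of this sum was Lyz2, which averaged 151, 944 and 1878 CPM, and all 10 were called higher in each construct than in 4OHT. The summed level of 12 germ cell markers was 2342 to 2395, 2997 to 3091 and 3238 to 3274 CPM in 4OHT, MU and OE. Of the germ cell markers, 6 rose and 6 fell in each construct against 4OHT. Endothelial markers summed to at most 17.9 CPM and Sertoli cell markers to at most 28.7 CPM in any library, and no marker of the 5 lists was at 0 in all libraries. In bulk RNA, fewer cells of a type and less RNA per cell cannot be told apart, and the part of these shifts in the results below was not tested.

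The regions before the RefSeq starts of Id2, Id3 and Smad6 are printed. They were chosen because Id3, Smad6 and Id2 had the largest falls of the 10 genes in OE against 4OHT. Id2 and Id3 also differed between the constructs. The 250 bases before the RefSeq start are given 5′ to 3′ on the strand of the gene, in GRCm38.p6. By the GENCODE gene spans given below, the windows of Id2 and Id3 lie within the gene and that of Smad6 lies outside it. Capitals mark the letters of motifs reported for SMAD complexes, GGCGCC and GGAGCC for BMP SMADs and CAGAC for the SMAD box, searched on both strands, so that GGAGCC may be read as GGCTCC and CAGAC as GTCTG.
Id2, chr12:25096093-25096342, minus strand: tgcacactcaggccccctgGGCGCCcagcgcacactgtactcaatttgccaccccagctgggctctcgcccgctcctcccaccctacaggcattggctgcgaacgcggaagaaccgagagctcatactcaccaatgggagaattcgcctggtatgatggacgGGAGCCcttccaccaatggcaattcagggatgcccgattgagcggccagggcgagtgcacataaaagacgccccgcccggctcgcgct
Id3, chr4:136143572-136143821, plus strand: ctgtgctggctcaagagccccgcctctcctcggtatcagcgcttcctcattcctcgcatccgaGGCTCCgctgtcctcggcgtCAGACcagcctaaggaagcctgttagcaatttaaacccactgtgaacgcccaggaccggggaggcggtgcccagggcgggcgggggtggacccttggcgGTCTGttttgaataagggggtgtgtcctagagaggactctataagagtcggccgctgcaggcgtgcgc
Smad6, chr9:64022060-64022309, minus strand: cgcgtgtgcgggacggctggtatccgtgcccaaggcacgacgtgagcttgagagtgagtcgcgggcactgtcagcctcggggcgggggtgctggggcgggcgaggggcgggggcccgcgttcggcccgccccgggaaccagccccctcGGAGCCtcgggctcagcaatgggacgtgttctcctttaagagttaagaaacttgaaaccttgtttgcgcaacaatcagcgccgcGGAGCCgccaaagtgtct

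In Id2, GGCGCC began 231 bases and GGAGCC 88 bases before the start. In Id3, GGAGCC began 187 bases before the start, on the other strand. CAGAC began 167 bases before the start on the strand of the gene and 68 bases before it on the other strand. Smad6 held GGAGCC at 102 and 18 bases before the start. RefSeq entries were matched for 8 of the 10 genes, with 10 promoters in all. Of these 10 promoters, 3 belong to Bmpr1b, and its promoters 2 and 3 overlap. GGCGCC was in 3 of the 10, GGAGCC in 7 and CAGAC in 3. Of all 32851 promoters of the same length, 9.59% held GGCGCC, 25.97% GGAGCC and 42.2% CAGAC. These matches describe letters in a window and not binding. GC content of the 10 windows ranged from 46.8% to 85.6%, and the motif shares were not set against promoters of like GC content.

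All 10 genes were lower in both constructs than in 4OHT, and Id1, Id2 and Id3 were also higher in MU than in OE. Each of the 10 was called lower in MU against 4OHT, where 26.5% of all genes tested were called lower, and each was called lower in OE against 4OHT, where 27.9% were. In all 10 the 3 libraries of 4OHT lay above every MU and OE library, as they did for 26.5% of all genes tested. The members' median log2 fold change was -0.73 in MU and -1.05 in OE against 4OHT, beside 0.04 and 0.02 over all genes. Over the feeder fibroblast markers the same medians were -0.77 and -1.12, with 14 of 15 lower in each comparison. Both comparisons use the same 4OHT libraries.

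In MU against OE, 3 of the 10 genes were called, all higher, where 2.12% of all genes tested were called higher. The members' median was 0.13, beside 0.01 over all genes. Of the feeder fibroblast markers, 12 of 15 were called higher in MU than in OE, with a median of 0.36, and of the germ cell markers none of 12 was called by edgeR, where 6 had an unadjusted p under 0.05 and DESeq2 called 1. Of the macrophage markers, 9 of 10 were called lower in MU, with a median of -0.98.

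**Figure D1:**
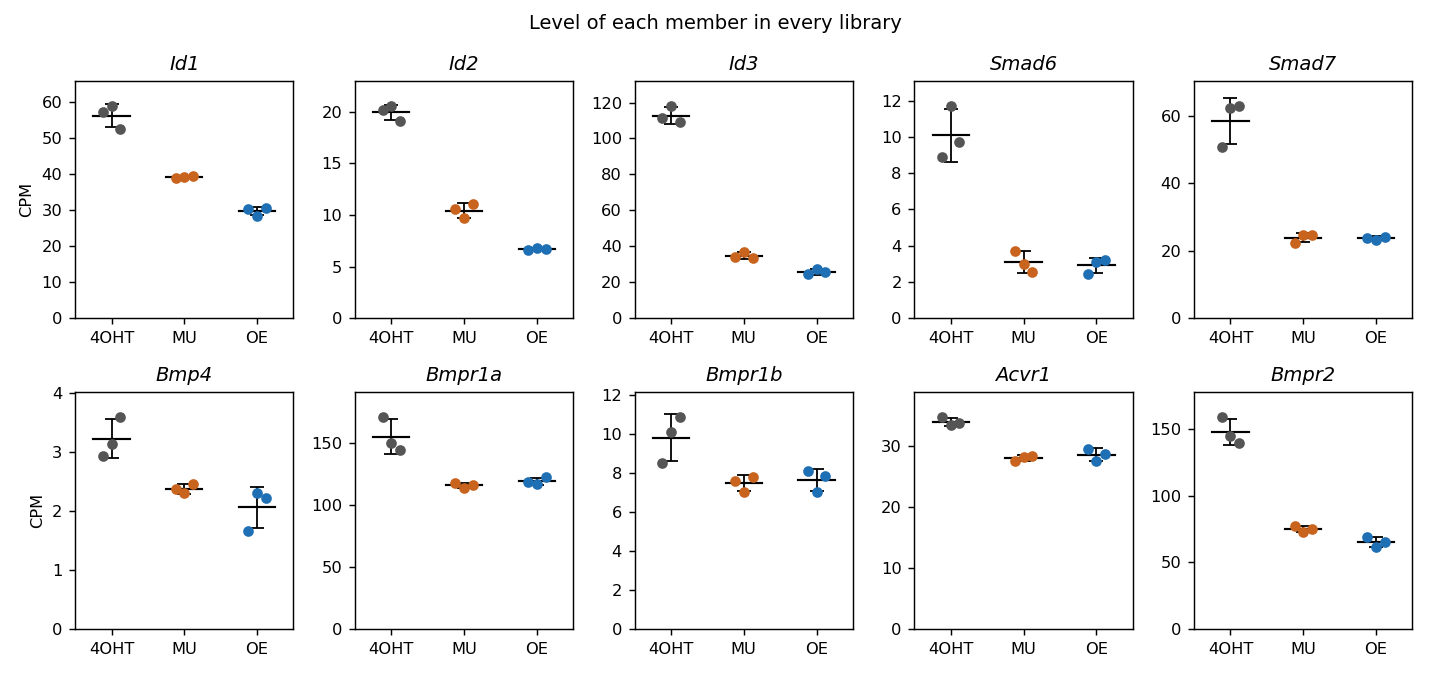
CPM of the 10 genes (vertical axis, from 0, with its own range in each panel) in the 3 libraries of each group, with a horizontal line at the mean and bars of 1 SD. In every panel the 4OHT libraries lie above the others, and MU lies above OE without overlap in Id1, Id2, Id3 and Bmpr2.

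Id1, Id2 and Id3 encode the inhibitors of DNA binding that serve as readouts of BMP signalling in many cells. All 3 genes were stepped in the order 4OHT, MU and OE, without overlap between groups. Among all genes tested, 6.42% showed this order, and among the 10 genes it was found in Id1, Id2, Id3 and Bmpr2.

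Id1 (ENSMUSG00000042745, chromosome 2, 152736251 to 152737410, plus strand, GRCm38) was at 57.3, 58.9 and 52.7 CPM in 4OHT, at 39.04, 39.3 and 39.4 CPM in MU and at 30.4, 28.5 and 30.6 CPM in OE. The 3 MU libraries were nearly equal, and the groups stood well apart. Id1 fell 1.43-fold in MU (log2 fold change -0.52 ± 0.058, edgeR adjusted p = 3.1e-06) and 1.89-fold in OE (-0.92 ± 0.059, edgeR adjusted p = 1.0e-08) against 4OHT. MU was 1.32-fold above OE (0.40 ± 0.058, edgeR adjusted p = 0.0013).

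Id2 (ENSMUSG00000020644, chromosome 12, 25093799 to 25097140, minus strand) was the least abundant of the 3 ID genes in CPM. Its libraries were at 20.2, 20.5 and 19.2 CPM in 4OHT, at 10.6, 9.66 and 11.1 CPM in MU and at 6.57, 6.78 and 6.72 CPM in OE. It fell 1.91-fold in MU (-0.93 ± 0.081, edgeR adjusted p = 2.7e-07) and 2.98-fold in OE (-1.58 ± 0.084, edgeR adjusted p = 1.6e-09). Among the 10 genes Id2 had the largest difference between the constructs, with MU 1.56-fold above OE (0.64 ± 0.082, edgeR adjusted p = 4.7e-04).

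Id3 (ENSMUSG00000007872, chromosome 4, 136143497 to 136145755, plus strand) was at 111, 118 and 109 CPM in 4OHT, at 33.8, 37.0 and 33.4 CPM in MU and at 24.4, 27.3 and 25.5 CPM in OE. Both constructs were far below 4OHT, while the gap between them was small beside that fall. The fall was 3.24-fold in MU (-1.70 ± 0.062, edgeR adjusted p = 5.6e-11) and 4.38-fold in OE (-2.13 ± 0.063, edgeR adjusted p = 5.7e-12). MU was 1.35-fold above OE (0.43 ± 0.061, edgeR adjusted p = 0.0010). On the log2 scale, MU lay 43.3% of the way from OE to 4OHT for Id1, 40.7% for Id2 and 20.3% for Id3. In these libraries the summed feeder fibroblast markers were ordered in the same way as the ID genes, the macrophage markers in the opposite way, and Prmt5 in the opposite way too. Their part in the ID differences was not tested.

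**Figure D2:**
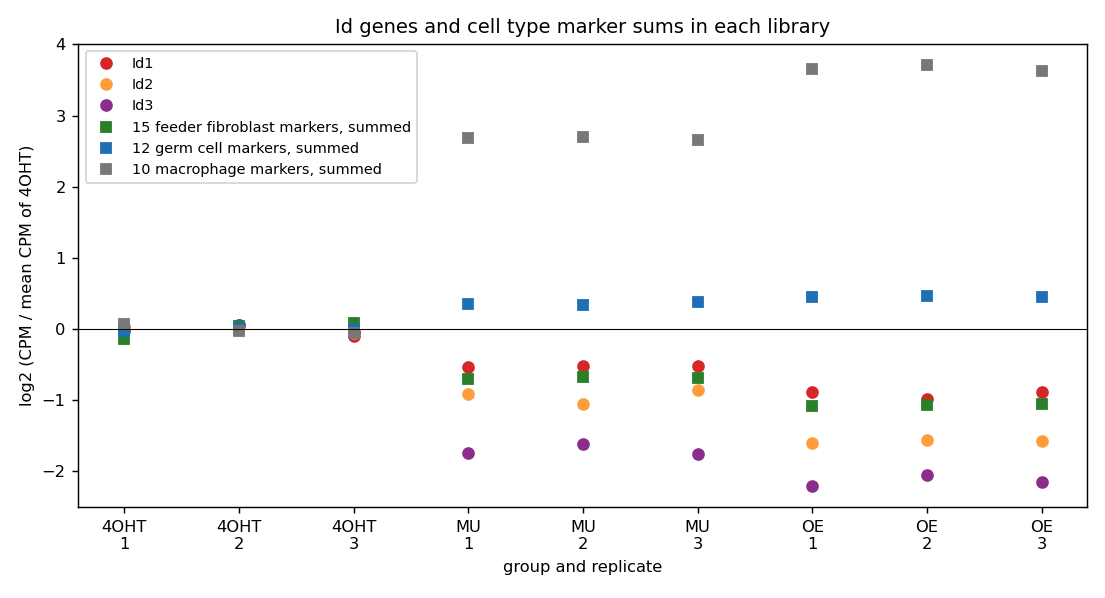
Level in each library relative to the mean of 4OHT, as log2 of the CPM ratio (vertical axis), for Id1, Id2 and Id3 (circles) and for the summed CPM of 3 lists of cell type markers (squares), by group and replicate (horizontal axis). Id genes and the sum of feeder fibroblast markers step down from 4OHT to MU to OE. The sums of macrophage markers (172 to 188, 1122 to 1156 and 2213 to 2336 CPM) and germ cell markers step up. Most of the macrophage sum is Lyz2, with means of 151, 944 and 1878 CPM in 4OHT, MU and OE. Singly, 6 of the 12 germ cell markers rose and 6 fell in each construct against 4OHT.

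Smad6 and Smad7, whose products inhibit the receptors and compete with the signalling SMADs, fell about as far in MU as in OE. Smad6 (ENSMUSG00000036867, chromosome 9, 63953076 to 64022059, minus strand) was at 8.87, 11.7 and 9.69 CPM in 4OHT, at 3.72, 2.98 and 2.54 CPM in MU and at 2.44, 3.12 and 3.20 CPM in OE. The MU and OE libraries were interleaved. It fell 3.28-fold in MU (-1.71 ± 0.17, edgeR adjusted p = 7.8e-07) and 3.44-fold in OE (-1.78 ± 0.17, edgeR adjusted p = 5.7e-07). The difference between MU and OE was 0.07 with a 95% interval from -0.28 to 0.43 (edgeR adjusted p = 0.93).

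Smad7 (ENSMUSG00000025880, chromosome 18, 75367529 to 75395935, plus strand) was at 50.7, 62.3 and 62.9 CPM in 4OHT, at 22.4, 24.8 and 24.6 CPM in MU and at 23.9, 23.1 and 24.2 CPM in OE. It fell 2.45-fold in MU (-1.29 ± 0.080, edgeR adjusted p = 9.4e-09) and 2.47-fold in OE (-1.30 ± 0.081, edgeR adjusted p = 8.0e-09). The constructs overlapped, with a difference of 0.01 and a 95% interval from -0.16 to 0.18 (edgeR adjusted p = 0.98). The upper ends of the intervals of Smad6 and Smad7 are 0.43 and 0.18, and those of the ID genes are 0.52 for Id1, 0.82 for Id2 and 0.56 for Id3, with lower ends of 0.27, 0.46 and 0.30. Whether the ID genes and the inhibitory SMAD genes differ from each other in this comparison was not tested.

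Bmp4 (ENSMUSG00000021835, chromosome 14, 46383520 to 46390669, minus strand), the ligand among the 10 genes, had the lowest CPM of them in each group. It was at 2.94, 3.14 and 3.59 CPM in 4OHT, at 2.37, 2.30 and 2.46 CPM in MU and at 1.66, 2.31 and 2.22 CPM in OE, with between 135 and 870 counts in a library. OE replicate 1 was below the other 5 construct libraries, which lay close together. Bmp4 was 1.36-fold lower in MU (-0.44 ± 0.17, edgeR adjusted p = 0.035) and 1.56-fold lower in OE (-0.64 ± 0.17, edgeR adjusted p = 0.0048) than in 4OHT. The call in MU was lost without 4OHT replicate 2 (edgeR adjusted p = 0.0684) or 3 (0.123), without MU replicate 1 (0.0896), 2 (0.0964) or 3 (0.0640), and without the filter on low counts (0.134). MU and OE differed by 0.20, with a 95% interval from -0.16 to 0.56 (edgeR adjusted p = 0.72).

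The type I receptor genes among the members, Bmpr1a, Bmpr1b and Acvr1, fell only slightly from 4OHT. Bmpr1a (ENSMUSG00000021796, chromosome 14, 34410734 to 34503341, minus strand), which encodes the broadly expressed BMP type I receptor ALK3, was at 170.4, 149.7 and 144 CPM in 4OHT, at 118, 113 and 116 CPM in MU and at 118, 116 and 122 CPM in OE. It was 1.34-fold lower in MU (-0.42 ± 0.059, edgeR adjusted p = 3.0e-05) and 1.30-fold lower in OE (-0.38 ± 0.059, edgeR adjusted p = 7.3e-05). Its MU and OE values overlapped, and they differed by -0.04 with a 95% interval from -0.17 to 0.09.

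Bmpr1b (ENSMUSG00000052430, chromosome 3, 141837136 to 142169425, minus strand), which encodes the related receptor ALK6, was far lower at 8.49, 10.1 and 10.9 CPM in 4OHT. It was at 7.58, 7.03 and 7.82 CPM in MU and at 8.10, 7.00 and 7.85 CPM in OE. The lowest 4OHT library and the highest OE library were close to each other. Bmpr1b was 1.31-fold lower in MU (-0.39 ± 0.11, edgeR adjusted p = 0.0077) and 1.28-fold lower in OE (-0.36 ± 0.11, edgeR adjusted p = 0.013), and the call in OE was lost without 4OHT replicate 3 (edgeR adjusted p = 0.0535) or OE replicate 2 (0.0676). The constructs differed by -0.03, with a 95% interval from -0.27 to 0.21.

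Acvr1 (ENSMUSG00000026836, chromosome 2, 58388644 to 58567157, minus strand) encodes ALK2, a type I receptor for BMP6 and BMP7 in particular. Its libraries were at 34.7, 33.5 and 33.8 CPM in 4OHT, at 27.5, 28.2 and 28.4 CPM in MU and at 29.6, 27.5 and 28.6 CPM in OE. The fall was the smallest of the 10, at 1.21-fold in MU (-0.28 ± 0.056, edgeR adjusted p = 6.9e-04) and 1.19-fold in OE (-0.25 ± 0.057, edgeR adjusted p = 0.0016). MU and OE differed by -0.03, with a 95% interval from -0.15 to 0.09.

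Bmpr2 (ENSMUSG00000067336, chromosome 1, 59763400 to 59879014, plus strand), the BMP-specific type II receptor gene, fell further than the type I receptor genes Bmpr1a, Bmpr1b and Acvr1. It was at 159, 145 and 139 CPM in 4OHT, at 77.0, 72.5 and 74.8 CPM in MU and at 69.2, 61.9 and 65.1 CPM in OE. The fall was 1.98-fold in MU (-0.98 ± 0.060, edgeR adjusted p = 7.1e-09) and 2.26-fold in OE (-1.18 ± 0.060, edgeR adjusted p = 1.1e-09), and the intervals from -1.11 to -0.86 and from -1.31 to -1.05 lie below those of the 3 type I receptors, of which the lowest bound was -0.63 in MU and -0.60 in OE. Every MU library was above every OE library, with a difference of 0.19 and a 95% interval from 0.07 to 0.32 that did not pass the adjusted threshold (edgeR adjusted p = 0.12). It passed when the 6 MU and OE libraries were fitted alone (edgeR adjusted p = 0.0144), without 4OHT replicate 1 (0.0448) and without 4OHT replicate 3 (0.0318).

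Genes that overlap Bmp4, Bmpr1a and Acvr1 on the opposite strand had at most 25, 74 and 4 counts in any library, and one that overlaps Bmpr2 on the same strand at most 12. Whether the counting used the strand is not given in the sources used here, so reads of these pairs may not have been told apart.

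**Figure D3:**
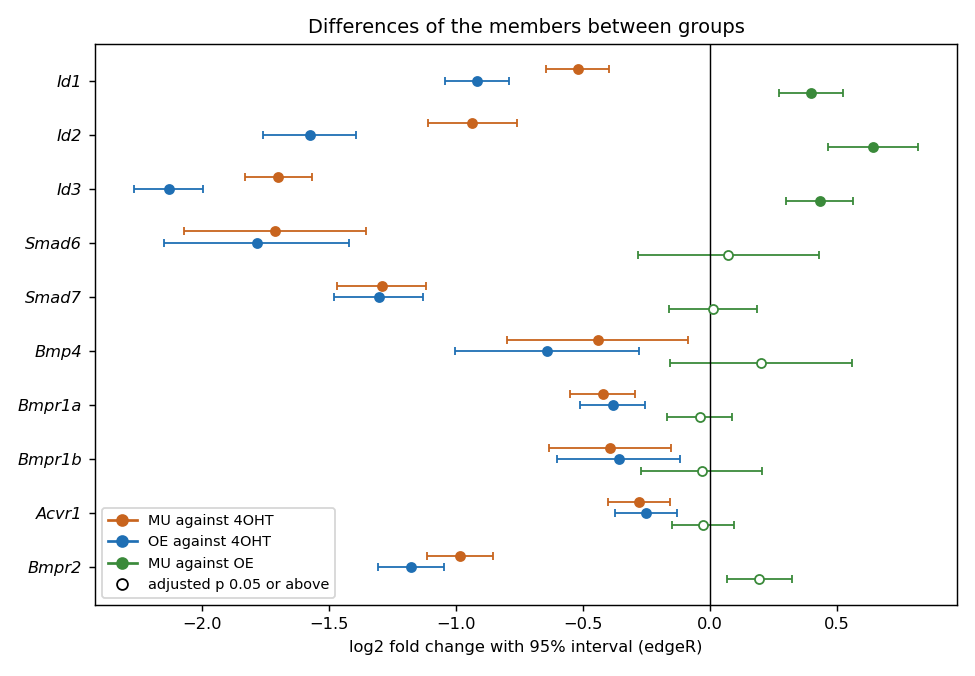
Log2 fold changes of the 10 genes with 95% intervals (horizontal axis) in 3 comparisons. Filled points passed an adjusted p of 0.05 and open points did not, and all 10 genes lie below 0 against 4OHT while 3 lie above 0 as filled points in MU against OE.

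Between genes, levels can be set side by side only per length, here as CPM per kilobase of merged exons. In 4OHT the order was Id3 (63.0 ± 2.502, SD, n = 3), Id1 (48.5 ± 2.75), Bmpr1a (24.4 ± 2.18), Smad7 (13.0 ± 1.52), Bmpr2 (8.22 ± 0.562), Id2 (8.18 ± 0.290), Acvr1 (7.04 ± 0.133), Smad6 (3.15 ± 0.450), Bmpr1b (1.65 ± 0.203) and Bmp4 (1.43 ± 0.149). Of these neighbours, Bmpr2 and Id2 overlapped in their libraries, as did Bmpr1b and Bmp4. Bmpr1a was thus the leading BMP receptor of the 10 genes per length, and Bmpr1b the lowest.

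The order differed in the constructs. In MU, Id1 led with 33.8 ± 0.168 CPM per kilobase, followed by Id3 (19.4 ± 1.09), Bmpr1a (18.2 ± 0.355), Acvr1 (5.80 ± 0.0988), Smad7 (5.30 ± 0.298), Id2 (4.28 ± 0.293), Bmpr2 (4.16 ± 0.126), Bmpr1b (1.25 ± 0.0678), Bmp4 (1.06 ± 0.0353) and Smad6 (0.961 ± 0.187). Id2 overlapped Bmpr2 there, and Bmp4 overlapped Smad6. In OE, Id1 was at 25.7 ± 1.01, above Bmpr1a (18.7 ± 0.461), Id3 (14.4 ± 0.824), Acvr1 (5.91 ± 0.219), Smad7 (5.25 ± 0.118), Bmpr2 (3.63 ± 0.203), Id2 (2.74 ± 0.0432), Bmpr1b (1.28 ± 0.0965), Bmp4 (0.918 ± 0.156) and Smad6 (0.910 ± 0.131), and Bmp4 and Smad6 overlapped. Id3 moved from the first place in 4OHT to the third in OE, and Smad6 moved to the last place in both constructs.

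The rest of the pathway was read from lists of 49 further BMP genes, of which 45 were tested. Against 4OHT, 10 rose and 26 fell in MU and 10 rose and 25 fell in OE, with medians of -0.55 and -0.52. Over all genes tested, 29.5% were called higher and 26.5% lower in MU, and 29.9% and 27.9% in OE. In MU against OE, 6 were higher and none was lower by edgeR, with a median of 0.05, where 2.12% of all genes were called higher and 1.06% lower. At an unadjusted p under 0.05, 12 were higher and 1 was lower, and DESeq2 called 7 higher and 0 lower. Genes named below that the naming rule did not pick were chosen after their values were seen.

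Of 7 further BMP target genes, 3 rose in both constructs, where 29.5% of all genes were called higher in MU and 29.9% in OE. Hey1, a transcriptional repressor of the HES/HEY family that NOTCH also induces, was at 11.4, 11.9 and 9.25 CPM in 4OHT, at 26.3, 28.8 and 29.2 CPM in MU and at 28.0, 29.9 and 31.5 CPM in OE. It rose by 1.37 ± 0.093 in MU (edgeR adjusted p = 2.1e-08) and by 1.46 ± 0.093 in OE (edgeR adjusted p = 1.0e-08) on the log2 scale. Bambi, a decoy receptor that lacks the kinase, rose by 0.74 and 0.70, and Msx2, a homeobox gene, by 0.63 and 0.67. Msx1, with under 2 CPM throughout, fell in MU (-1.45, edgeR adjusted p = 0.0013) and was at -0.72 in OE (edgeR adjusted p = 0.068, and 0.0419 without MU replicate 3), and MU and OE did not differ past the threshold (edgeR adjusted p = 0.34).

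Id4, the ID gene known from SSCs, was at 25.95, 29.4 and 26.8 CPM in 4OHT, at 25.8, 26.5 and 26.3 CPM in MU and at 28.4, 25.2 and 22.5 CPM in OE. The 3 groups overlapped, unlike those of the other ID genes. Its log2 fold change was -0.06 in MU with a 95% interval from -0.24 to 0.11, and -0.11 in OE with one from -0.29 to 0.06. These intervals do not reach those of Id1, which end at -0.40 in MU and -0.79 in OE. Atoh8, a basic helix-loop-helix gene, was not called either, at 0.05 and 0.15, except in OE without 4OHT replicate 3 (edgeR adjusted p = 0.0201).

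Of 13 further ligands tested, 2 rose and 6 fell in each construct against 4OHT, and 5 were not called. Among all genes tested, 29.5% were called higher and 26.5% lower in MU, and 29.9% and 27.9% in OE. Bmp2, a ligand of BMPR1A, was at 6.64, 7.46 and 5.42 CPM in 4OHT, at 0.946, 0.874 and 0.879 CPM in MU and at 0.628, 0.588 and 0.644 CPM in OE. It fell by 2.85 ± 0.17 in MU (edgeR adjusted p = 5.2e-09) and by 3.39 ± 0.18 in OE (edgeR adjusted p = 1.4e-09) on the log2 scale, more than Bmp4. Gdf6, a BMP of the joints and skeleton, fell by 1.56 and 2.27 and was the only BMP ligand called in MU against OE by edgeR, where it was higher by 0.71 ± 0.14 (edgeR adjusted p = 0.010). That call was lost without MU replicate 2 (edgeR adjusted p = 0.0512) or 3 (0.0508). The 2 that rose were Bmp7 (0.33 in each construct) and Bmp8b (0.89 in MU and 0.95 in OE), a BMP with known roles in the germ line. Bmp8a went the other way and fell by 0.84 in MU (edgeR adjusted p = 0.014) and by 1.22 in OE (edgeR adjusted p = 0.0015). Its mean level was low, at 1.97 CPM in 4OHT, 1.10 in MU and 0.85 in OE. Per length, Bmp7 was the most abundant of the 6 BMP genes compared, which were Bmp2, Bmp4, Bmp6, Bmp7, Bmp8b and Gdf6, with 5.57 ± 0.358 CPM per kilobase in 4OHT, 7.02 ± 0.349 in MU and 7.00 ± 0.696 in OE.

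The 3 receptors of the pathway beyond the 10 genes did not all fall. Acvrl1 encodes the type I receptor ALK1, known best from endothelium. It was at 32.7, 35.2 and 40.5 CPM in 4OHT, at 14.6, 14.3 and 13.5 CPM in MU and at 14.4, 13.5 and 13.0 CPM in OE. It fell by 1.35 ± 0.084 in MU (edgeR adjusted p = 8.6e-09) and by 1.41 ± 0.085 in OE (edgeR adjusted p = 5.7e-09). Its fall was larger than that of Bmpr2 in MU and, with overlapping intervals, in OE. The type II receptors that BMPs share with activins rose, Acvr2a by 0.44 in MU and 0.46 in OE and Acvr2b by 0.27 and 0.32, while Bmpr2 fell. The call for Acvr2b in MU was lost without 4OHT replicate 1 (edgeR adjusted p = 0.0505) or MU replicate 1 (0.0549). None of the 7 BMP receptors was called in MU against OE by edgeR or by DESeq2, and at an unadjusted p under 0.05 there was 1, Bmpr2.

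All 4 co-receptors fell in both constructs, where 26.5% of all genes were called lower in MU and 27.9% in OE. Rgma, a GPI-anchored co-receptor, fell by 1.56 in MU and 1.71 in OE, and Tgfbr3, betaglycan, by 1.36 and 1.66. Tgfbr3 was also higher in MU than in OE, by 0.30 ± 0.060 (edgeR adjusted p = 0.012), a call lost without MU replicate 2 (edgeR adjusted p = 0.0517) or 3 (0.0844) and without OE replicate 1 (0.0559) or 2 (0.0595). The signal transducers moved little. Smad1 fell by 0.31 in MU and 0.21 in OE, Smad5 by 0.36 and 0.31 and the common partner Smad4 by 0.40 and 0.41. Smurf1, a ubiquitin ligase for these SMADs, fell by 0.55 in MU and by 0.47 in OE. Smurf2, the other ligase listed, rose by 0.17 in MU (edgeR adjusted p = 0.0071) and by 0.21 in OE (edgeR adjusted p = 0.0018). Smad9 was not called in either construct. Of these 6 transducers and ligases, 4 were thus called lower and 1 higher in each construct.

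Of 13 extracellular antagonists tested, 10 fell and 2 rose in each construct. Over all genes tested, 26.5% were called lower and 29.5% higher in MU, and 27.9% and 29.9% in OE. Grem1, which encodes the BMP2 and BMP4 antagonist gremlin 1, was at 266, 251 and 237 CPM in 4OHT, at 17.2, 17.7 and 16.6 CPM in MU and at 15.9, 14.8 and 14.8 CPM in OE. Its fall, 14.6-fold in MU (edgeR adjusted p = 4.5e-14) and 16.6-fold in OE (edgeR adjusted p = 2.2e-14), was larger than that of any of the 10 genes. Chrdl1, chordin-like 1, rose by 1.56 ± 0.10 in MU and by 1.71 ± 0.10 in OE. In MU against OE, Fst was higher by 0.31, Fstl1 by 0.41 and Nbl1 by 0.36, and no antagonist was called lower by edgeR or DESeq2 or had a lower level at an unadjusted p under 0.05. The call for Nbl1 was lost without MU replicate 3 (edgeR adjusted p = 0.0609) or OE replicate 1 (0.0579), and that for Fst without 4OHT replicate 2 (0.0598), MU replicate 1 (0.0784), 2 (0.0792) or 3 (0.210), or OE replicate 1 (0.177), 2 (0.111) or 3 (0.0690).

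**Figure D4:**
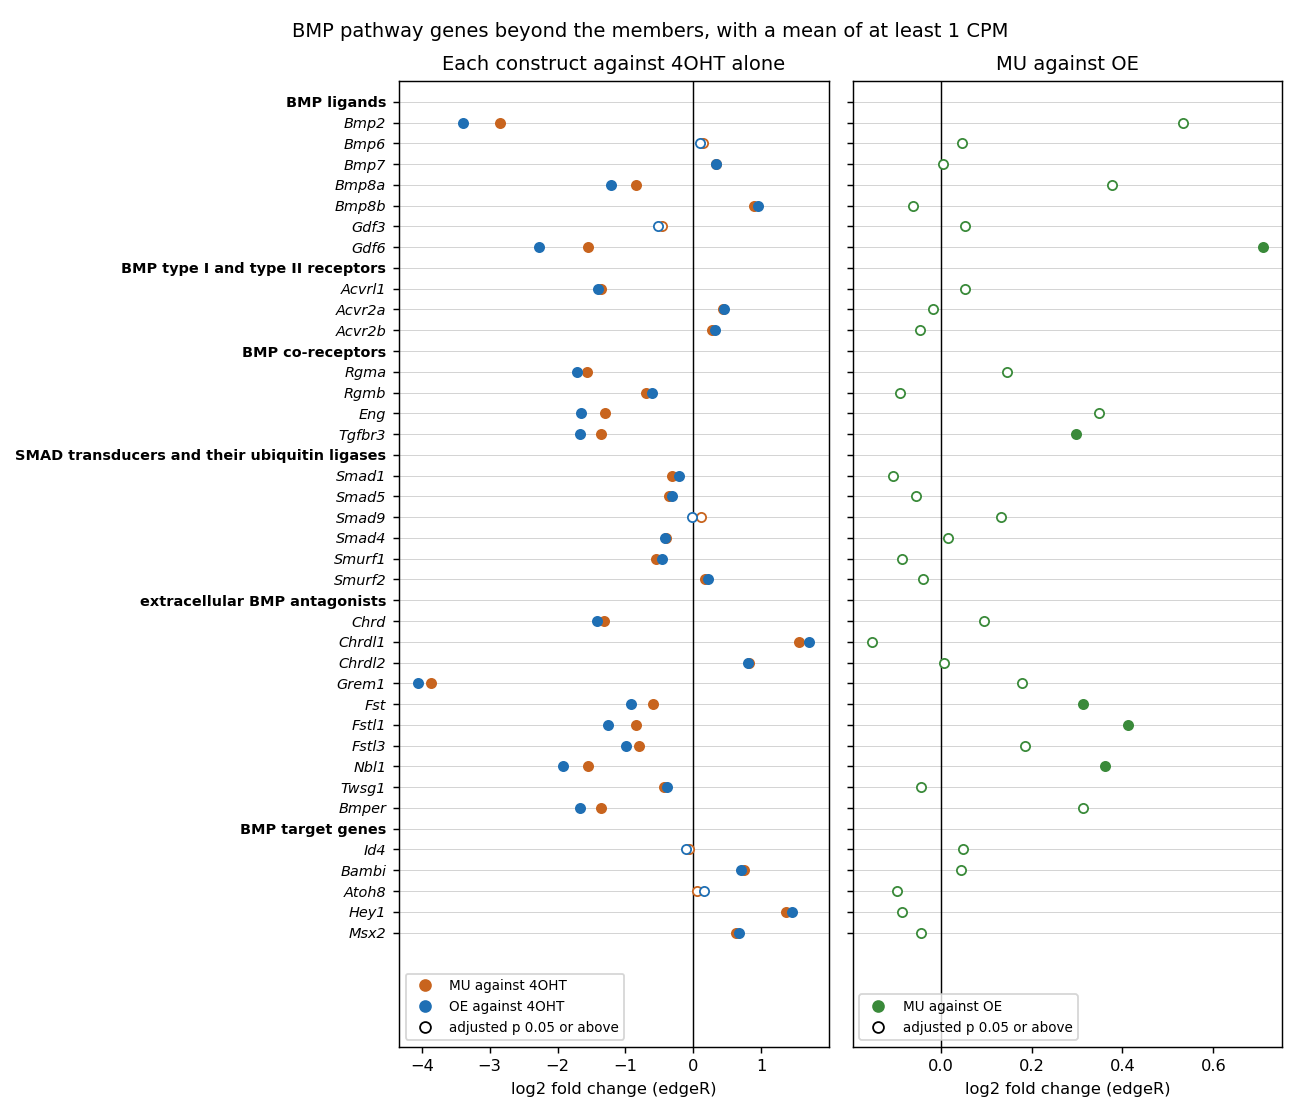
Log2 fold changes (horizontal axes) of other BMP pathway genes with a mean of at least 1 CPM, by role, for each construct against 4OHT (left) and for MU against OE (right). Filled points passed an adjusted p of 0.05 and open points did not, and the called genes plotted in the right panel, Gdf6, Tgfbr3, Fst, Fstl1 and Nbl1, all lie above 0.

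The partners of the ID proteins and the TGF-beta and activin branch were read in the same way. Of the 3 E protein genes, Tcf4 fell by 1.36 in MU and 1.52 in OE and Tcf12 by 0.55 and 0.53. Tcf3, which had the highest CPM of the 3 in each group, was not called in either construct. It was at -0.12 in MU (edgeR adjusted p = 0.22) and at -0.06 in OE (edgeR adjusted p = 0.51). None of the 3 was called in MU against OE by edgeR or DESeq2, with 1 at an unadjusted p under 0.05. Of the 8 TGF-beta and activin ligands tested, all 8 fell in MU and 7 in OE. Inhba, the activin A subunit gene, was higher in MU than in OE by 0.40 ± 0.073 (edgeR adjusted p = 0.0066), a call lost without OE replicate 2 (edgeR adjusted p = 0.0558). At an unadjusted p under 0.05, 6 of these ligands were higher and 1 was lower in MU than in OE, and DESeq2 called 3 higher and 1 lower. Tgfb1 was lower in MU, at -0.24 (edgeR adjusted p = 0.072). Inhbb, the activin B subunit gene, fell by 1.67 in MU and by 1.96 in OE and was at 0.29 in MU against OE (edgeR adjusted p = 0.056), which passed the threshold without 4OHT replicate 1 (0.00701), 2 (0.0165) or 3 (0.0331), in the fit of the 6 MU and OE libraries alone (0.00193), without the filter on low counts (0.0212), with counts divided by 4 (0.0382), with the replicate block (0.0419) and with DESeq2 (0.0129). Of the 6 receptors and SMADs of that branch, 2 rose and 2 fell in each construct, beside the shares of all genes called (29.5% higher and 26.5% lower in MU, 29.9% and 27.9% in OE), among them Tgfbr2, the TGF-beta type II receptor gene, which fell by 1.48 in MU and 1.66 in OE, and Smad2, a SMAD of that branch, which rose by 0.50 and 0.54.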

How the data were processed

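RNA-seq of mRNA libraries was analysed in 9 samples, grouped by their labels as 4OHT, MU and OE. The values the authors deposited are raw integer counts for each gene. Per the study's methods and the submitters' processing notes, trimming used BBmap and Trimmomatic 0.39, alignment to GRCm38 used HISAT2 2.2.1, and quantification used StringTie 2.2.1. How whole numbers arose, strandedness and the handling of multiply aligned reads are not given in the sources used here. The value 4 was 1.35 to 1.84 times as frequent as the mean of 3 and 5 in each library, so that 1 read pair may stand for about 4 counts, and counts divided by 4 were tried as an alternative. A floor of 3 counts equals 0.0082 to 0.0381 CPM, which covers counting error only.

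Genes were filtered with filterByExpr (minimum count 10, minimum total 15), scaled by TMM (trimmed mean of M values) and tested with edgeR 4.0.16 in R 4.3.3, by a quasi-likelihood model of all 9 libraries with the group as its only factor. P-values were adjusted by Benjamini-Hochberg over 22452 genes. Identifiers were matched to GENCODE vM21 for 53620 of 53801 genes. With counts divided by 4, libraries of 1 group differed by a chi-square of 3.34 to 18.8 per degree of freedom, and none were merged as duplicates. Same-numbered libraries of different groups did not deviate together (correlations from -0.02 to 0.04), so numbers were not taken as pairs. The 10 genes and all lists were chosen with earlier results of these data known. The text names the 10 genes, Prmt5, list genes past the threshold in MU against OE, and the 2 genes with the largest change against 4OHT in each list (mean of at least 1 CPM, groups without overlap). Other genes were named after their values were seen, and a gene that the rule picked is not reported here. Alternatives were DESeq2 1.42.0, its size factors, no filter, fits of the compared groups only, a replicate block, counts divided by 4, each library left out and the longest transcript for lengths.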

Additional observations from a re-analysis of the deposited data

Results flagged for a closer look

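Id1, Id2 and Id3 are listed here because their change from 4OHT differed between MU and OE by the test of that difference, which is the comparison of MU with OE. Id1 was higher in MU by 0.40 on the log2 scale, with 39.04 to 39.4 CPM in MU and 28.5 to 30.6 CPM in OE. Id2 was higher by 0.64, with 9.66 to 11.1 against 6.57 to 6.78 CPM. Id3 was higher by 0.43, with 33.4 to 37.0 against 24.4 to 27.3 CPM. In each of the 3 genes all 3 MU libraries were above all 3 OE libraries.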

How the results depend on the processing

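Id1, Id2 and Id3 kept their calls in all 3 comparisons under all 15 alternatives. In MU against OE they ranged from 0.36 to 0.44, from 0.60 to 0.69 and from 0.39 to 0.47 on the log2 scale, with an adjusted p of at most 0.0170, 0.00526 and 0.0115. Over the 10 genes, 144 of the values in MU against 4OHT kept their call and 6 lost it (all of Bmp4), and 148 kept it in OE against 4OHT and 2 lost it (both of Bmpr1b). In MU against OE, 138 stayed as they were, 3 passed the threshold (all of Bmpr2) and 9 uncalled values changed sign. Genes called higher and lower in MU against OE numbered 729 and 383 with DESeq2's Wald test and 822 and 743 when the 6 libraries were fitted alone, beside 475 and 237, and with 1 library left out they ranged from 256 to 686 and from 144 to 413. With a replicate block they numbered 444 and 230, and it changed no call of the 10 genes. Without the filter the sign of MU against OE turned for Bmpr1b (0.0049), Acvr1 (0.011), Tcf12 (0.023) and Acvr2a (0.023), and for Bmp7 it turned with DESeq2's size factors (-0.0063) and Wald test (-0.00016). Leaving out 1 library turned the sign of small differences between MU and OE, with ranges from -0.083 to 0.19 for Smad6, from -0.013 to 0.058 for Smad7, from -0.094 to 0.011 for Bmpr1b, from -0.052 to 0.013 for Tcf12, from -0.094 to 0.086 for Acvr2a from -0.069 to 0.072 for Bmp7 and from -0.029 to 0.14 for Id4. Against 4OHT it did so in MU for Id4 (-0.11 to 0.00068) and Atoh8 (-0.0079 to 0.17). No causes were tested. By the longest transcript, per-length places became 7 for Id2 and 6 for Acvr1 in 4OHT, 6 for Smad7, 7 for Id2 and 5 for Bmpr2 in MU, and 3 for Bmpr1a and 2 for Id3 in OE. No scaling moved the median of all genes by over 0.1.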
